A study of Mus musculus with 8 samples.

Results

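The genes described here are 10 imprinted genes of growth and development: H19, Igf2, Dlk1, Meg3, Peg3, Peg10, Plagl1, Mest, Snrpn and Grb10. They were chosen by name, as every non-control probe whose gene name in the scanner files is one of the 10. No value entered this rule, but earlier results of these data were known when the genes were chosen. They had 28 probes on the array, of 55419 probes for 34541 gene names in all. Each gene was read from the probe with the highest mean level over the arrays, and each of these 10 probes was well above background on all 8 arrays.

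The study asked how activin A, added during neural differentiation of mouse embryonic stem (ES) cells, affects retinal progenitors. There were 8 single-colour microarrays, 1 for each of 8 populations, and RNA from 3 experiments was pooled for each, per the labels, so that no population has a replicate array. ES cells were aggregated, replated in adhesion, given the Wnt inhibitor IWR-1-Endo at 5 μM from day 3 and analysed on day 10. K/l-EB5 cells, a male line on a 129/Ola background that carries a GFP reporter of Rax, a gene of the early eye field, received 10 ng/ml activin A or the Sonic hedgehog agonist SAG at 100 nM 12 h after the inhibitor. They were then sorted into RAX-positive and RAX-negative populations, which gave 4 arrays. The fifth culture, the Wi control, was of another male 129/Ola line, E14Tg2A, which received the Wnt inhibitor without either factor and is not described as sorted. Its array was on another slide, scanned separately, so ES line, sorting, added factor and slide cannot be told apart where it is compared. Cortex, diencephalon/hypothalamus and eye were dissected from 3 Sv129s6 embryos at embryonic day 12.5, and each is a whole tissue of many cell types. All RAX-positive arrays were in one slide column and all RAX-negative arrays in the other, so the gate and the slide column cannot be told apart either.

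An imprinted gene is expressed mainly from the copy inherited from one parent, under the control of DNA methylation laid down on one of the copies in the germ line. Igf2, Dlk1, Peg3, Peg10, Plagl1, Mest and Snrpn are known as paternally expressed, H19 and Meg3 as maternally expressed, and Grb10 as maternally expressed in most tissues and paternally expressed in neurons. Several of them promote or restrain fetal growth, and imprinted genes are known to lose or gain expression when ES cells are kept in culture. These arrays measure the total level of a transcript and not which parental copy it came from.

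H19 and Igf2 are neighbours on chromosome 7, and Dlk1 and Meg3 are neighbours on chromosome 12. H19 and Meg3 make long noncoding RNAs, and their probes are shown because the results turn on whether several probes of a gene ran alike. All are 60 bases long, written 5′ to 3′ as the scanner files give them, on build mm9; their place in exons was not analysed here. Of the 7 H19 probes, the first below was the brightest (chr7:149761492-149761551, minus strand). The next lies at chr7:149761693-149761752 and ran alike, and the last, at chr7:149762417-149762476, stayed near background.
A_55_P1961127: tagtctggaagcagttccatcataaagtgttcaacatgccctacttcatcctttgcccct
A_30_P01021588: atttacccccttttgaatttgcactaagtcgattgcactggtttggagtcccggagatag
A_55_P1961125: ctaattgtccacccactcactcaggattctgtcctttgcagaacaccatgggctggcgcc
Of the 3 Meg3 probes, 2 follow, the brightest first. They lie on the plus strand at chr12:110809678-110809737 and chr12:110799558-110799617.
A_51_P455997: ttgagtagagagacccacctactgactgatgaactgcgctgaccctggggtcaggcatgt
A_52_P196568: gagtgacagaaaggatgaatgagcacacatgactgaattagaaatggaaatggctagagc

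Levels are given as log2 of the signal relative to the 75th percentile of the array, so that 0 is a fairly bright probe. A level compares a gene between arrays and never one gene with another, because probes differ in brightness. With 1 array a population there is no replicate error. In its place, a difference between a pair of arrays was called where it reached 1 on the log2 scale with the brighter array above background. The scanner's own error gives a difference between 2 arrays of H19 or Mest an error of 0.204, and the 9 or 10 usable repeat spots of the Mest probe had an SD of 0.031 to 0.059 on each array. In whole populations, fewer cells of a type and less RNA per cell cannot be told apart.

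**Figure D1:**
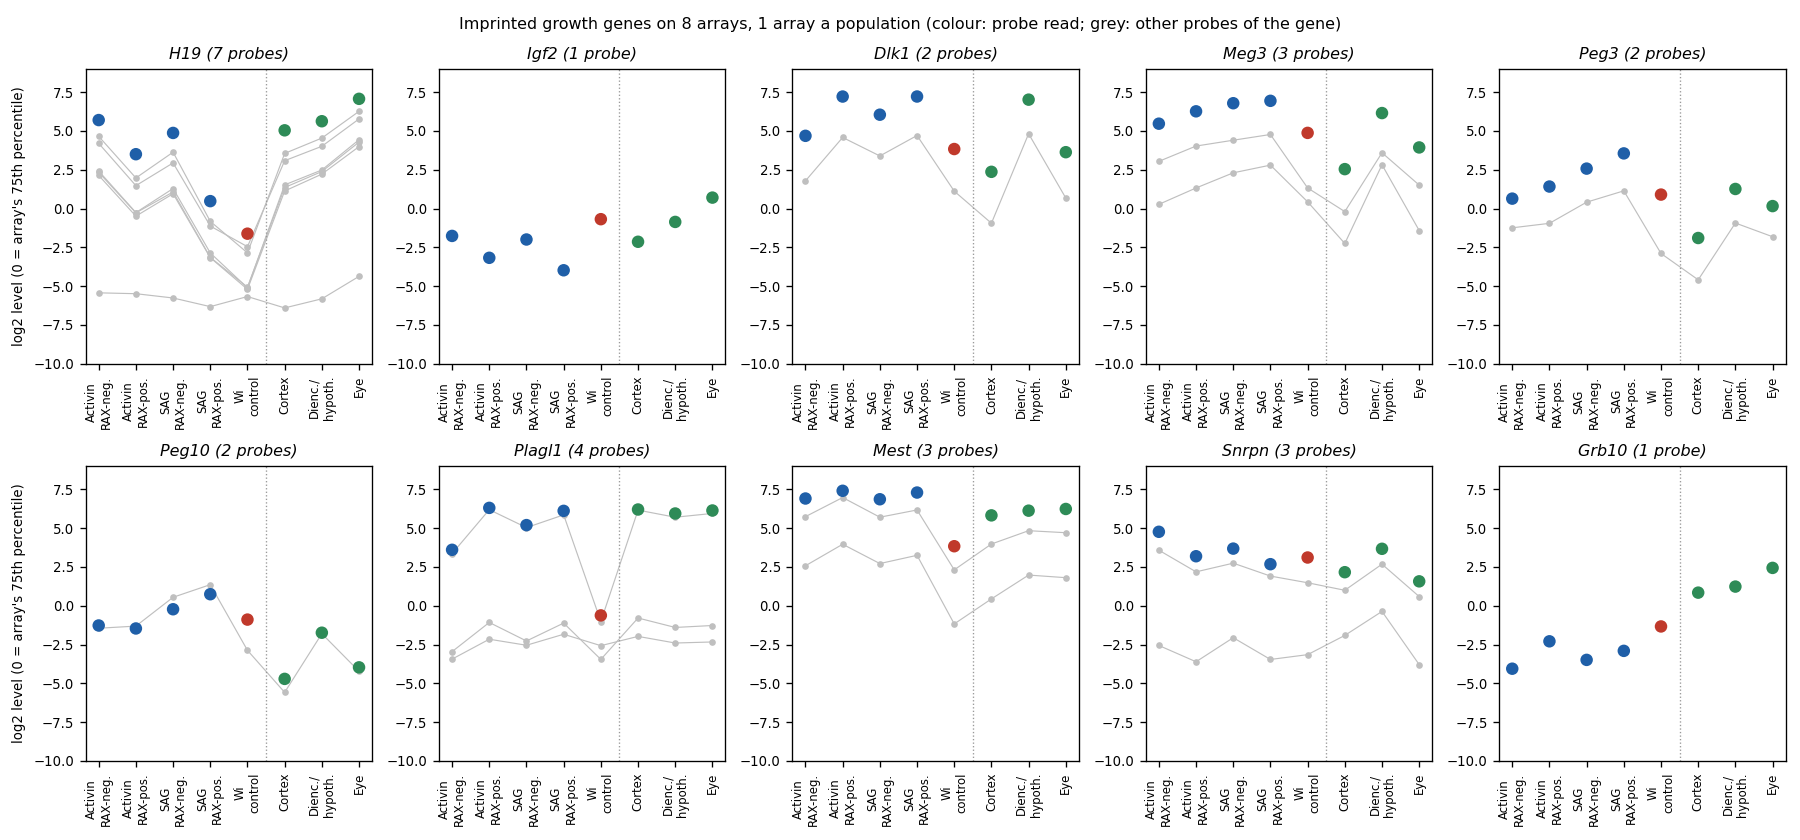
Log2 level of each of the 10 genes (vertical axis, 0 is the array's 75th percentile) on the 8 arrays (horizontal axis); blue points are the 4 sorted cultures, red the Wi control and green the 3 tissues, and grey lines are the gene's other probes. H19 runs from -1.62 in the Wi control to 7.07 in the eye, Plagl1 and Mest are lowest in the Wi control, and Grb10 is lower in all 5 cultures than in the 3 tissues.

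H19, the noncoding RNA transcribed beside Igf2, had the widest range of the 10 genes, 412.1-fold. Its level was 7.07 in the eye, 5.62 in diencephalon/hypothalamus and 5.04 in cortex. Among the cultures it was 5.70 in the activin RAX-negative, 4.87 in the SAG RAX-negative, 3.50 in the activin RAX-positive and 0.48 in the SAG RAX-positive cells, and -1.62 in the Wi control. The activin RAX-negative cells thus lay among the tissues and the SAG RAX-negative cells just below cortex, the lowest tissue. The Wi control stood lowest of all 8 arrays. In the order of levels, the activin RAX-negative cells and diencephalon/hypothalamus were closer than the scanner's error, and so were cortex and the SAG RAX-negative cells. The other probes of the gene gave the same lowest and highest array with 1 exception. On 5 of them the Wi control was lowest and the eye highest, and the range over arrays was 8.23 to 9.54. The seventh, A_55_P1961125, was well above background on 5 arrays and had a range of 2.03.

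Igf2, the growth factor gene itself, ran differently. Its single probe, at chr7:149839661-149839720 on the minus strand, read 0.70 in the eye, -0.86 in diencephalon/hypothalamus and -2.14 in cortex. Among cultures it read -0.69 in the Wi control, -1.76 in the activin RAX-negative, -2.0 in the SAG RAX-negative, -3.17 in the activin RAX-positive and -3.98 in the SAG RAX-positive cells. The Wi control, lowest for H19, was therefore the highest culture for Igf2. The correlation of the 2 genes over the 8 arrays was r = 0.36, a description with no test, as are all correlations here; the cultures share a protocol and 4 of them a line.

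Both genes had a lower level in RAX-positive than in RAX-negative cells with either factor. After activin, H19 was 4.59-fold lower (log2 -2.20) and Igf2 2.66-fold lower (-1.41) in the RAX-positive cells. After SAG, H19 was 21.0-fold lower (-4.39) and Igf2 3.95-fold lower (-1.98). On the 5 other bright H19 probes the differences were -2.61 to -2.73 after activin and -4.07 to -4.45 after SAG. Between factors, H19 in RAX-positive cells was 8.12-fold higher after activin than after SAG (3.02), and in RAX-negative cells the difference was 0.83, not called. The 5 other bright probes gave 1.02 to 1.27 in RAX-negative cells, past the size, and 2.60 to 2.87 in RAX-positive cells. With median scaling the brightest probe also passed in RAX-negative cells, at 1.17. For Igf2 the values were 0.80 and 0.23, neither called.

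Markers of mesenchyme moved with these differences. Of 10 such genes, 7 were lower and 0 higher in RAX-positive cells after activin (median log2 -2.21, all genes 0.10), and 9 lower and 0 higher after SAG (median -2.97, all genes 0.04). After activin, the collagen gene Col3a1 read 2.17 in RAX-negative and -3.00 in RAX-positive cells. After SAG it read 2.84 and -3.88. Their summed level on the log2 scale was 4.05 and 3.83 in the RAX-negative cultures, 2.48 and 1.31 in the RAX-positive ones, 2.58 in the Wi control, and 5.83 to 7.19 in the tissues. Of 7 measured trophoblast markers 7 were lower in RAX-positive cells after each factor, and pluripotency markers were lower in 7 of 10 after activin and in 6 of 10 after SAG, with 1 of 10 higher. Mesoderm and endoderm markers were lower in 7 of 7 measured after activin (median -3.90) and in 2 of 5 after SAG (median -0.65), with 0 higher. Skeletal muscle markers were lower in 4 of 6 after activin, with 1 higher, and in 2 of 5 after SAG, with 0 higher. The Wi control and the activin RAX-positive cells had like mesenchyme sums (2.58 and 2.48) but unlike single markers. Col3a1 read 0.53 in the Wi control and -3.00 in those cells, and Col1a2 1.19 and 2.03. H19 was 34.8-fold lower and Igf2 5.61-fold higher in the Wi control than in those cells. The part of mesenchyme, trophoblast, pluripotent, mesoderm, endoderm and muscle cells in the H19 and Igf2 differences was not tested.

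**Figure D2:**
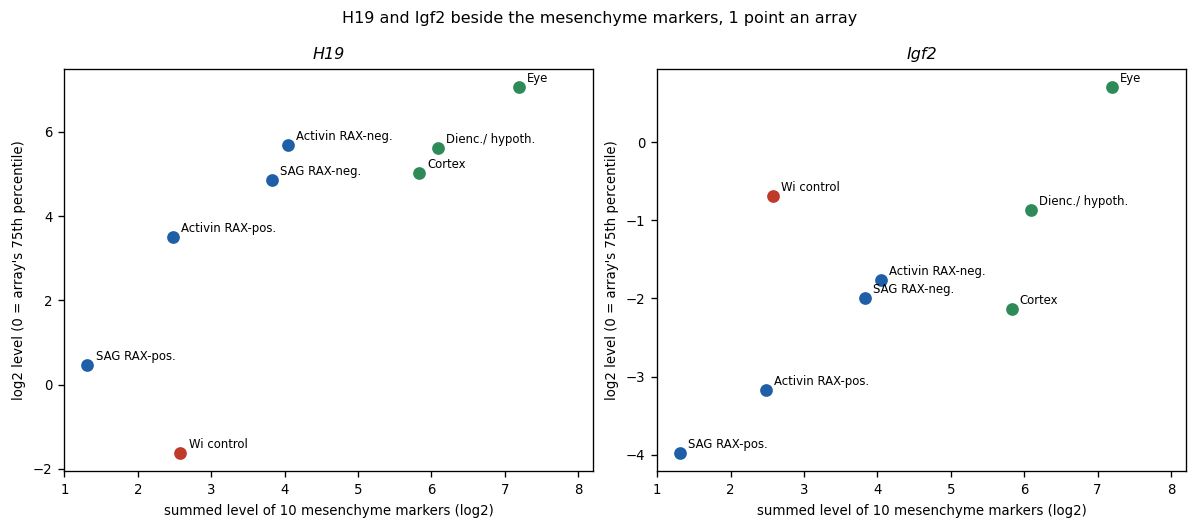
Log2 level of H19 (left) and Igf2 (right) against the summed level of 10 mesenchyme markers on the log2 scale, 1 point an array; blue is a sorted culture, red the Wi control and green a tissue. In the 4 sorted cultures both genes are lowest where the markers are lowest, and the Wi control, at 2.58 on the horizontal axis, lies below the sorted cultures for H19 and above them for Igf2.

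Dlk1 encodes a membrane protein related to Notch ligands, and Meg3 is the noncoding RNA of the same imprinted cluster, made from the other parental copy. Dlk1 had a level of 7.22 in SAG RAX-positive, 7.21 in activin RAX-positive, 6.04 in SAG RAX-negative and 4.68 in activin RAX-negative cells, and 3.83 in the Wi control. In the tissues it was 7.01 in diencephalon/hypothalamus, 3.63 in the eye and 2.36 in cortex. Both RAX-positive populations were thus close to diencephalon/hypothalamus and above the other 2 tissues. Dlk1 was 5.78-fold higher in RAX-positive than in RAX-negative cells after activin (log2 2.53) and 2.25-fold higher after SAG (1.17). The RAX-positive populations of the 2 factors differed in Dlk1 by 0.00 on the log2 scale. The second Dlk1 probe gave 2.80 and 1.32 for the gate.

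Meg3 read 6.94, 6.78, 6.26 and 5.47 in SAG RAX-positive, SAG RAX-negative, activin RAX-positive and activin RAX-negative cells, and 4.87 in the Wi control. The tissues read 6.15 in diencephalon/hypothalamus, 3.94 in the eye and 2.54 in cortex. Between gates Meg3 differed by 0.80 after activin and 0.15 after SAG. The other probes gave 0.99 and 1.06 after activin, the latter past the size, and 0.37 and 0.50 after SAG. Among RAX-negative cells it was 2.49-fold lower after activin than after SAG (-1.32), and Dlk1 was 2.57-fold lower (-1.36). In diencephalon/hypothalamus Dlk1 was 25.1-fold and Meg3 12.2-fold higher than in cortex, and 10.4-fold and 4.64-fold higher than in the eye. On the second Meg3 probe shown the excess over cortex was 5.07 on the log2 scale.

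The levels of the pair ran together: r between Dlk1 and Meg3 was 0.92 over the 8 arrays. Of 27033 gene names compared, the 3 most like Meg3 were all transcripts named by their place in the same cluster, given here as the files name them on mm9, with F or R for the strand. They were chr12:110894095-110899517_F (r = 0.99), chr12:110870903-110891628_R (r = 0.99) and chr12:110973190-110987668_F (r = 0.98). The first 2 most like Dlk1 were chr12:110870903-110891628_R (r = 0.96) and chr12:110845020-110850870_R (r = 0.95), and the next was Plg, the plasminogen gene (r = 0.95). Of the 16 gene names with r above 0.95 to Meg3, 5 lay between Dlk1 and Dio3. This stretch of 820.1 kb was then looked at as a whole, a choice made after its values had been seen. It held 32 gene names, and 29 besides Meg3 were above background on at least 3 arrays. Of these 29, 16 had r above 0.8 with Meg3, against 2.01% of all gene names, and their median r was 0.86 against 0.09. Of the same 29, 20 were lower in the Wi control than in all 4 sorted arrays, against 33.2% of all gene names, and 18 were highest of the tissues in diencephalon/hypothalamus, against 22.4%. Neighbouring probes can read the same long transcript, so these are not independent measurements. Mirg, a microRNA host transcript of the cluster, read 3.58 to 4.29 in the sorted cultures and 1.41 in the Wi control.

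**Figure D3:**
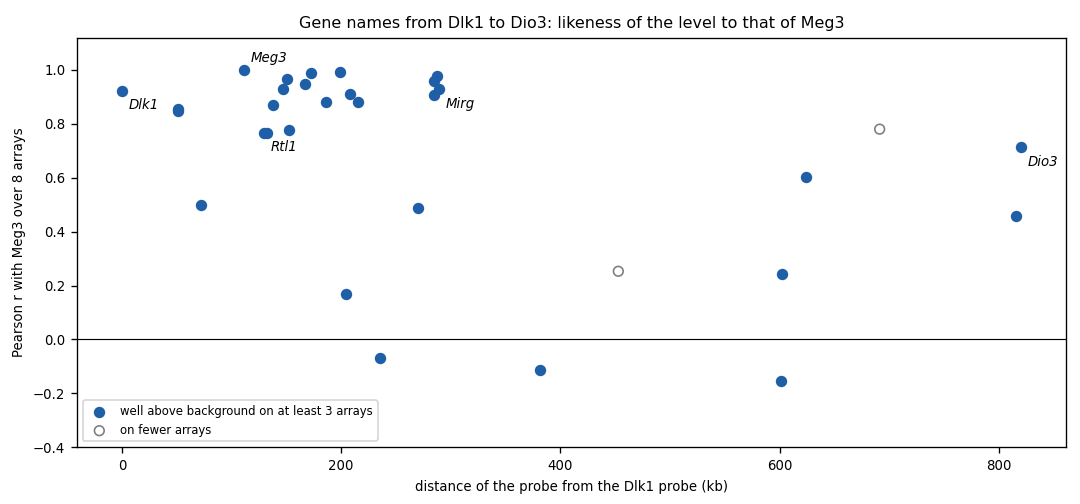
Pearson r with the Meg3 level over the 8 arrays (vertical axis) for each gene name between Dlk1 and Dio3, by the distance of its probe from the Dlk1 probe in kb (horizontal axis); open points were above background on fewer than 3 arrays. Most points up to Mirg lie above 0.8, and the lowest value in the stretch is -0.15.

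Plagl1, a zinc finger transcription factor, and Mest, a gene of the hydrolase family, set the Wi control apart from every other array. Plagl1 read -0.62 in the Wi control and 3.60, 6.30, 5.19 and 6.11 in activin RAX-negative, activin RAX-positive, SAG RAX-negative and SAG RAX-positive cells. The tissues read 6.20 in cortex, 5.94 in diencephalon/hypothalamus and 6.14 in the eye. The sorted cultures exceeded the Wi control 18.7-fold to 121.5-fold, and the tissues differed among themselves by at most 1.19-fold. The second bright probe gave 4.37 to 7.20 on the log2 scale for the same differences. Both dim probes of Plagl1 did not: on A_55_P1961965 the differences from the Wi control were -0.87 to 0.74, and on A_55_P2153251 they were 0.50 to 2.38. After activin, Plagl1 was 6.50-fold higher in RAX-positive than RAX-negative cells (2.70), and after SAG the difference was 0.92.

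Mest read 3.83 in the Wi control, 6.86 to 7.40 in the 4 sorted cultures, and 5.82, 6.12 and 6.23 in cortex, diencephalon/hypothalamus and eye. The sorted cultures were 8.14-fold to 11.9-fold above the Wi control. No pairing of gates, factors or tissues differed by 1 log2 unit on this probe, and the largest such difference was 0.50, between gates after activin. On the other 2 Mest probes the excess over the Wi control was 3.39 to 5.13. These gave 1.23 and 1.39 for the gate after activin, past the size that the brightest probe missed. Plagl1 and Mest correlated at r = 0.77 over the 8 arrays, with the Wi control lowest for both. Without that array they did not run alike. Activin RAX-negative cells were next lowest for Plagl1, at 3.60, and Mest there was 6.91, above all tissues.

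Plagl1 and Mest were both lowest in the Wi control on their brightest probes. The bases before their annotated starts are shown, from RefSeq on GRCm38.p6. Every CG pair, the letters at which mammalian DNA is methylated, is in capitals (CG reads the same on both strands). RefSeq gave windows for 8 of the 10 genes, 18 in all; H19 and Peg10 were not among them. The 250 bases before the Plagl1 start held 19 CG pairs, a number that 19.7% of all 32851 windows reach. Of the 3 Mest windows, the first listed of the 2 richest held 14, which 29.4% reach, and the poorest held 7. The richest windows of Grb10 and Igf2 held 40 and 22 CG pairs, which 1.31% and 14.8% reach. These 2 genes ran the other way, with the Wi control the highest of the cultures. The median was 8 over the 18 windows and 6 over all. This describes the letters alone; methylation was not measured. Both windows shown lie on the plus strand, Plagl1 at chr10:13090582-13090831 and Mest at chr6:30737800-30738049.
Plagl1: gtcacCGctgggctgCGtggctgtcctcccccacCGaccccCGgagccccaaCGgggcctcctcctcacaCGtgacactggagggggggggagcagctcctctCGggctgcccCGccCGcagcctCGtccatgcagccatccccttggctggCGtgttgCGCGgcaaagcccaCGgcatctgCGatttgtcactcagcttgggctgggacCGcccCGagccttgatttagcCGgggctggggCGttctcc
Mest: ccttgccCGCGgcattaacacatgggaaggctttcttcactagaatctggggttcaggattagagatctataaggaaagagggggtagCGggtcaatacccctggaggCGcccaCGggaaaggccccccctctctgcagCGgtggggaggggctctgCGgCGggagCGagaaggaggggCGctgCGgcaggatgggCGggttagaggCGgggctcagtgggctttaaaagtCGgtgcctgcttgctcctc

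Across the 10 genes, the sorted cultures were all above the Wi control by the size rule for H19, Plagl1 and Mest, and all below it for Igf2. Of all gene names, 4.29% were higher and 7.06% lower by the same rule. For each gene the median of its 4 differences from the Wi control was taken. The median of these over the 10 genes was 1.37 on the log2 scale, against 0.03 over all. H19 was 4.28-fold to 159.6-fold above and Igf2 2.11-fold to 9.79-fold below the Wi control. The Igf2 call was lost with median scaling, quantile normalization, normexp background correction, the authors' table and a size of 1.5. With median scaling Dlk1 was also called higher and Grb10 lower. Grb10 was lower in all 4 sorted arrays, by 0.96 to 2.72 on the log2 scale, which missed the size in the activin RAX-positive cells. Dlk1 and Meg3 were 0.59 to 3.38 higher in the 4 arrays and missed it in the activin RAX-negative cells. The Meg3 probes disagreed there, the others giving -0.16 and 1.71. Probes disagreed for Peg3: the one read gave -0.26, 0.52, 1.67 and 2.65 for activin RAX-negative, activin RAX-positive, SAG RAX-negative and SAG RAX-positive, and the other gave 1.65, 1.94, 3.30 and 4.04. Peg10 was alike, at -0.57 to 1.63 on one probe and 1.42 to 4.23 on the other.

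**Figure D4:**
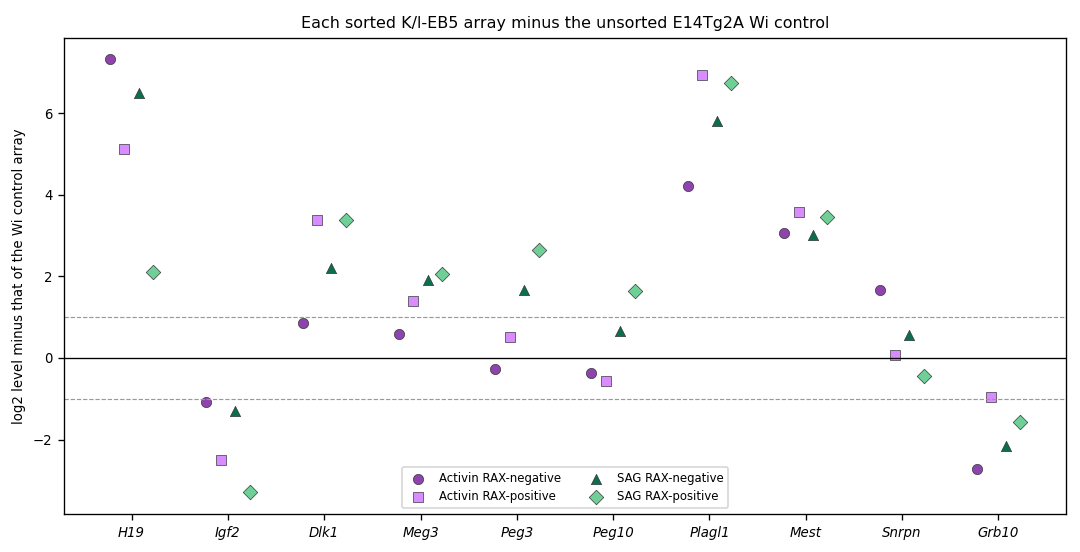
Log2 level of each sorted K/l-EB5 array minus that of the Wi control (vertical axis) for the 10 genes (horizontal axis); each marker is 1 sorted population, and the dashed lines mark differences of 1 and -1. All 4 markers lie above 1 for H19, Plagl1 and Mest and below -1 for Igf2.

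The Wi control differed from the sorted cultures in cell makeup as well. Of 10 pluripotency markers, 3 were lower and 0 higher in all 4 sorted arrays than in the Wi control (median log2 -4.25), and their summed level was 7.29 there, 6.29 in activin RAX-negative cells and 2.93 to 3.68 in the other sorted cultures. Its cortex markers summed to 6.53, against 1.95 to 5.17 in the sorted cultures and 7.02 in the cortex itself. Activin RAX-negative cells, the next highest in pluripotency markers, had the highest H19 of the cultures, at 5.70. Their Mest level was 6.91, in the range of the other sorted cultures. Their Plagl1 level, 3.60, was the lowest of the sorted cultures, and their Igf2 level, -1.76, the highest of them. The part of pluripotent or cortical cells in the differences was not tested. ES line, sorting, added factor and slide differ between these arrays too.

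Other imprinted genes were looked at from lists of 22 paternally and 22 maternally expressed genes on the array. Of 21 paternally expressed genes measured, 5 were higher and 2 lower in all sorted arrays than in the Wi control (median 1.28, all genes 0.03). Nnat, which encodes neuronatin, read 5.95 to 6.93 in the sorted cultures, 4.31 to 6.44 in the tissues and 1.56 in the Wi control. Peg13, a noncoding RNA, read -0.16 to 2.96, 2.12 to 4.23 and -4.50. Kcnq1ot1, the noncoding RNA of another imprinted cluster, read 0.21 to 3.06 in the sorted cultures and -1.95 in the Wi control. Rasgrf1 went the other way, at -6.93 to -5.43 against -2.08. Of 18 maternally expressed genes, 2 were higher, Mirg and Atp10a, and 0 lower (median 0.14). Of 13 genes of imprint maintenance and DNA methylation, 0 were higher and 2 lower, Dppa3 and Tet3 (median -0.69). Dppa3 read -2.23 in the Wi control and -8.13 to -3.27 in the sorted cultures, and Tet3 read -0.28 and -2.03 to -1.62.

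The gate split the 10 genes in both directions. After activin, Dlk1, Plagl1 and Grb10 were higher and H19, Igf2 and Snrpn lower in RAX-positive cells, 3 and 3 of 10; of all gene names 9.83% were higher and 6.13% lower. The median over the 10 was 0.64, against 0.10 over all. With normexp background correction the Igf2 and Grb10 calls were lost, at -0.98 and 0.96. After SAG, Dlk1 was higher and H19, Igf2 and Snrpn lower, 1 and 3 of 10, against 4.4% and 9.33% of all gene names (median 0.51, against 0.04). With scaling to the array's median the counts after SAG were 4 higher and 2 lower, because Peg3, Peg10 and Plagl1 passed and Snrpn did not. Dlk1 was thus called higher after both factors, as 0.912% of all gene names were, and H19, Igf2 and Snrpn were called lower after both, as 2.38% were. The Dlk1 call after SAG was lost with quantile normalization, at 0.91. Snrpn, which encodes a protein of the splicing machinery, read 4.76 and 3.68 in the RAX-negative cells and 3.19 and 2.68 in the RAX-positive cells after activin and SAG. It was 2.98-fold and 2.01-fold lower in RAX-positive cells, the second value at the edge of the size rule. In a limma model of gate and factor over the 4 sorted arrays, with 1 residual degree of freedom, 0 of the 10 genes passed at an adjusted p of 0.05, as did 0% of 26403 gene names in either direction. At an unadjusted p of 0.05, 5 of the 10 passed, against 7.51% of all gene names. H19 had a gate difference of -3.30 with an SE of 0.67 (limma adjusted p = 0.541), Igf2 one of -1.70 with an SE of 0.33 (limma adjusted p = 0.541), and Dlk1 one of 1.85 with an SE of 0.48 (limma adjusted p = 0.599).

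Peg3, a zinc finger gene, and Peg10, a gene derived from a retrotransposon, followed the added factor more than the gate. With activin, Peg3 read 0.64 in RAX-negative and 1.42 in RAX-positive cells. It read 2.57 and 3.55 after SAG, and 0.90 in the Wi control. Peg10 read -1.27 and -1.47 after activin, -0.23 and 0.74 after SAG, and -0.89 in the Wi control. Both were lower after activin than after SAG in either gate, Peg3 4.39-fold in RAX-positive and 3.82-fold in RAX-negative cells, and Peg10 4.61-fold and 2.06-fold. The second probe of Peg3 gave -2.09 and -1.65 and that of Peg10 -2.67 and -1.99 on the log2 scale. The Peg10 call in RAX-negative cells, at -1.05, was lost with median scaling, quantile normalization, normexp and the authors' table. Between gates after SAG, Peg10 differed by 0.97 on the same probe, which became a call with median scaling and with the authors' table. Of all gene names, 4.28% were lower after activin in both gates and 4.55% higher.

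In RAX-positive cells, H19 was higher and Peg3 and Peg10 lower after activin than after SAG, 1 and 2 of 10, where 12.4% of all gene names were higher and 6.68% lower (median over the 10 genes 0.15, against 0.23). In RAX-negative cells, Snrpn was higher and Dlk1, Meg3, Peg3, Peg10 and Plagl1 lower, 1 and 5 of 10, where 12.7% were higher and 14.6% lower (median -0.81, against 0.04). Snrpn was 2.12-fold higher there on the probe read (1.08), and 0.83 and -0.50 on its other probes. Plagl1 was 3.01-fold lower. In the additive limma model 0 of the 10 genes passed for the factor, and 2 did at an unadjusted p of 0.05, against 13.5% of all gene names; 0% of 26403 gene names passed in either direction. Peg3 had a difference of -2.03 with an SE of 0.30 (limma adjusted p = 0.323). Of the other paternally expressed genes, 1 was higher and 10 lower after activin of 21 measured in RAX-positive cells (median -0.55), and 1 higher and 10 lower of 20 in RAX-negative cells (median -1.08). Of 18 other maternally expressed genes, 0 were higher and 4 lower in RAX-positive cells (median -0.54), and 3 higher and 5 lower in RAX-negative cells (median 0.40). Among the paternally expressed, Usp29, a neighbour of Peg3, read -0.47 and 3.66 in RAX-negative cells given activin and SAG, and 0.05 and 3.22 in the RAX-positive ones. Nap1l5 read -2.34 and 1.48, and -1.54 and -0.10, in the same order. Of 8 neuron markers, 7 were lower and 0 higher after activin in RAX-positive cells (median -1.67), and likewise 7 and 0 in RAX-negative cells (median -2.97). Of 6 neural progenitor markers, 2 were lower and 1 higher in RAX-positive cells (median -0.48), and 3 lower and 1 higher in RAX-negative cells (median -1.24). Pluripotency markers were higher after activin in 8 of 10 in RAX-negative cells (median 2.71). Summed neuron markers were 4.76 and 5.81 in RAX-positive and RAX-negative cells after activin, and 6.24 and 7.39 after SAG. Their sum was 7.635 in the Wi control, where Peg3 read 0.90 and Peg10 -0.89 on the brightest probes. The part of these markers' cells in the imprinted genes' differences was not tested.

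Between tissues, most of the 10 genes had 1 of 2 tissues as the highest. H19, Igf2 and Grb10 were highest in the eye, and Dlk1, Meg3, Peg3, Peg10 and Snrpn were highest in diencephalon/hypothalamus. Plagl1 and Mest differed by at most 1.19-fold and 1.33-fold on their brightest probes; another Mest probe, A_55_P2151868, was 2.90-fold lower in cortex than in diencephalon/hypothalamus. Against cortex, the eye was higher for 6 of 10 genes (H19, Igf2, Dlk1, Meg3, Peg3 and Grb10) and lower for 0, where 12.8% of all gene names were higher and 7.28% lower (median 1.33, against 0.01). With median scaling the counts were 4 of these plus Snrpn lower, as Dlk1 and Meg3 missed the size. Against diencephalon/hypothalamus the eye was higher for 3 genes and lower for 5, with background shares of 10.6% and 7.93% (median -0.50, against 0.20). The eye exceeded both other tissues for H19, Igf2 and Grb10, as it did for 6.14% of all gene names, and was below both for 0 of the 10, against 3.22%. Igf2 was 7.19-fold above cortex and 2.96-fold above diencephalon/hypothalamus in the eye, and H19 4.08-fold and 2.72-fold. Cortex was below diencephalon/hypothalamus for 6 genes and above it for 0, with background shares of 10.5% and 8.55% (median -1.39, against 0.05). Peg3 read -1.90 in cortex, 0.16 in the eye and 1.26 in diencephalon/hypothalamus, and Peg10 -4.71, -3.97 and -1.74. Snrpn read 2.16, 1.57 and 3.67. Of the other 22 paternally expressed genes, 9 were lower and 0 higher in cortex than in diencephalon/hypothalamus (median -0.92). Among those, Magel2, a gene known for its hypothalamic expression, read 0.99 in cortex, -0.91 in the eye and 4.76 in diencephalon/hypothalamus, and Nap1l5 read -1.68, -3.31 and 2.05.

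Mesenchyme markers moved with the eye values: 6 of 10 were higher and 0 lower in the eye than in cortex (median 1.96) and than in diencephalon/hypothalamus (median 1.68), and their summed level was 7.19, 5.83 and 6.09. The summed level of neuron markers was 7.68 in diencephalon/hypothalamus, 6.26 in cortex and 4.64 in the eye. Of 8, 7 were lower and 0 higher in the eye than in diencephalon/hypothalamus (median -2.86), and 5 lower and 0 higher in cortex than there (median -1.40). Their part in the Dlk1, Meg3, Peg3, Peg10 and Snrpn values was not tested. Summed skeletal muscle markers were 5.73 in the eye, 0.01 in cortex and 0.75 in diencephalon/hypothalamus. The part of mesenchyme and muscle in the H19, Igf2 and Grb10 values was not tested. As a check of the tissue labels, summed lens markers were 8.62 in the eye and -3.29 and -0.62 elsewhere, and those of diencephalon and hypothalamus 4.01 in that tissue and -2.17 and -1.45 elsewhere. Summed pigment epithelium markers were 6.92 in the eye, 4.03 in cortex and -0.49 in diencephalon/hypothalamus. The eye field list did not single out the eye by its sum, which was 7.36 in cortex and 6.26 in the eye. Eye field markers were called higher in RAX-positive than RAX-negative cells in 6 of 6 genes with activin and in 4 of 5 measured with SAG.

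Grb10, an adaptor protein that restrains insulin and IGF receptor signalling, was the only one of the 10 genes that differed between cultures and tissues in the test. It read 0.84 in cortex, 1.23 in diencephalon/hypothalamus and 2.44 in the eye. In culture it read -1.33 in the Wi control, -2.29 in activin RAX-positive, -2.91 in SAG RAX-positive, -3.49 in SAG RAX-negative and -4.06 in activin RAX-negative cells. The 5 cultures, with a mean of -2.82 ± 1.06 (SD, n = 5), did not overlap the tissues, with 1.504 ± 0.83 (SD, n = 3). The difference was -4.32 with an SE of 0.64, or 20.0-fold lower in culture (limma adjusted p = 0.0109). Over 16 other settings, of processing, filters, arrays left out or a block, it passed in 15, at limma adjusted p of 0.00363 to 0.0497. Those 15, like the main test, take the arrays as independent, though the gates of a factor, and likewise the tissues, share a source. Only the setting with the source of the RNA as a random block took this into account. There Grb10 did not pass, at -4.22 (limma adjusted p = 0.115). Of 27034 gene names tested, 1.49% passed as higher and 1.42% as lower in culture, and the median difference of all was 0.17. Only one probe carried the gene, at chr11:11833165-11833224 on the minus strand. Each array in this test is another population, so the spread is that among populations. The ES lines and the embryos also differ in strain by the labels, and strain cannot be told apart from culture here.

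Red blood cell markers summed to 8.57 to 9.46 in the tissues and -2.58 to -1.99 in the cultures, and the mesenchyme markers were lower in all cultures by their sum; their part in the Grb10 difference was not tested. Peg10 was the reverse of Grb10: its brightest probe read -1.47 to 0.74 in culture and -4.71 to -1.74 in the tissues, again with no overlap. Its difference was 2.85 with an SE of 0.74 (limma adjusted p = 0.089), and it passed only without diencephalon/hypothalamus, at 3.72 (limma adjusted p = 0.0379). On its second probe the groups overlapped, with -2.87 in the Wi control below -1.80 in diencephalon/hypothalamus. Of all gene names, 9.3% had every culture above every tissue and 4.72% every culture below. H19 had a difference of -3.32 with an SE of 1.60 (limma adjusted p = 0.338) and Plagl1 one of -1.97 with an SE of 1.45 (limma adjusted p = 0.537). The remaining 6 genes did not pass either, with differences from -1.55 for Igf2 to 1.98 for Peg3. The median over the 10 genes was 0.71. At an unadjusted p of 0.05, 4 of the 10 passed, against 16.9% of all gene names.

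**Figure D5:**
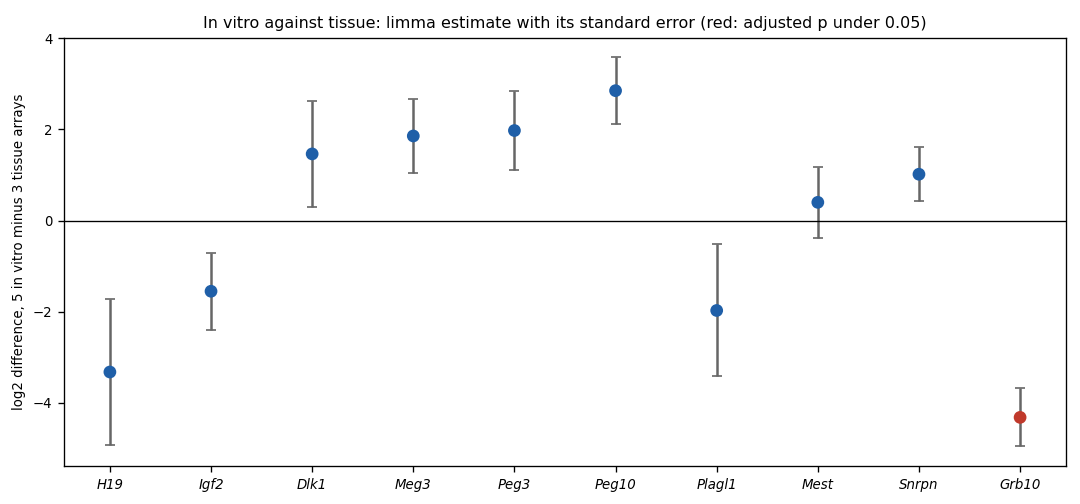
Log2 difference between the mean of the 5 in vitro arrays and that of the 3 tissue arrays (vertical axis) for the 10 genes (horizontal axis), with the standard error of the limma fit as bars; red marks an adjusted p under 0.05. Grb10, at -4.32, is the one gene past the threshold.

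In the same test, 0 of 22 other paternally expressed genes passed (median 0.51, all genes 0.17), and 1 of 19 maternally expressed genes did. That was Kcnq1, a potassium channel gene, at -2.98 with an SE of 0.64 (limma adjusted p = 0.0489). Of 16 measured genes of the insulin-like growth factor pathway, 1 passed as higher and 0 as lower (median 0.14). This was Igfbp2, which encodes a binding protein of the growth factors, at 6.05 to 7.06 in culture and 4.58 to 5.14 in the tissues (1.60, SE 0.32, limma adjusted p = 0.0374). The receptors Igf1r and Igf2r differed by 0.05 and -0.57 and did not pass. Between the sorted cultures and the Wi control, 2 of 15 genes of the pathway were called, Igf2bp1 and Igf2bp3, RNA-binding proteins named for the Igf2 messenger. Igf2bp1 read 3.03 to 4.37 in the sorted cultures and 1.99 in the Wi control, and Igf2bp3 3.23 to 3.95 and 1.75; Igf2 ran in the other direction between the same arrays. Of 12 measured genes of imprint maintenance and DNA methylation, 0 passed between cultures and tissues (median 0.58). Dnmt3l, a cofactor of de novo methylation, read 2.55 in the Wi control and 1.63 in activin RAX-negative cells, and -4.69 to -1.33 on the other 6 arrays. Dnmt3b, a de novo methyltransferase, read 6.41 in activin RAX-negative cells, 3.55 in the Wi control and 1.09 to 3.63 elsewhere.

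Apart from the chromosome 12 pair, the closest links among the 10 genes were between Peg3 and Meg3 (r = 0.94), Peg3 and Peg10 (r = 0.92) and Meg3 and Peg10 (r = 0.90), over 8 arrays. These genes lie on chromosomes 7, 12 and 6. Between Igf2 and Dlk1 r was -0.52. The 3 gene names whose level was most like that of H19 were Ccl2, a chemokine (r = 0.97), the unnamed probe A_55_P2000595 on the X chromosome (r = 0.97) and Meox2, a homeobox gene of mesoderm (r = 0.96). For Igf2 they were Kctd12 (r = 0.97), Nupr1 (r = 0.96) and Adamts17 (r = 0.95). All these values are descriptions over 8 arrays, 7 of which share a slide.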

How the data were processed

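Total RNA was labelled with Cy3 and hybridised to Agilent mouse arrays. The deposited intensity values are processed signals made with Agilent Feature Extraction 10.7.3.1 on build mm9, per the file headers (9.1 in the submitters' processing notes). The authors' deposited value table holds log2 values; its scaling is not given in the sources used here, and it served as an alternative. The total signal is no depth; with 1 array a population, the number of arrays limits the precision.

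Spots of a probe were averaged without outlier and control spots (59305 of 62976 spots remained before outliers), log2 signals were set relative to each array's 75th percentile, and a gene was read from its brightest probe. On each array 59.5% to 79.3% of spots were well above background. Pairs of arrays were called at a log2 difference of at least 1 (alternative 1.5), with no test; a dim value was raised to the lowest signal above background. limma 3.58.1 in R 4.3.3 (tested on simulated data) compared 5 in vitro with 3 tissue arrays over gene names above background on at least 3 arrays, and gate and factor over 4 sorted arrays (at least 2), with Benjamini-Hochberg adjustment at 0.05. Alternatives were median, quantile and normexp (offset 50) processing, the authors' table, the mean of all probes, other filters, an array left out and the RNA source as a random block.

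The members and gene lists were chosen with earlier results of these data known. Named were all 10 members; from other lists, genes past limma's threshold or the up to 4 largest differences; and the 3 genes most like H19, Igf2, Dlk1 and Meg3. Coordinates of probes are those of the files; exons and UTRs were not assigned. Gene names of the 7 arrays of slide 1 were used, since 6422 probes had another name in the Wi control file; members were named alike.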

Additional observations from a re-analysis of the deposited data

Results flagged for a closer look

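Mest in the Wi control was the lowest of the 5 in vitro arrays, at 3.83 against 6.86 to 7.40. The gap to the next array was 0.8474 of the whole range, above Dixon's value of 0.71 for 5 samples. Chance flags about 1 in 20 groups, and the 5 arrays are different populations. Neither ES line, sorting, added factor nor slide can be told apart from this difference.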

How the results depend on the processing

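No called member changed direction in any alternative; of 700 values of single genes under the alternatives other than the size of 1.5, 655 stayed on their side of the call rule or threshold, 21 lost a call and 24 gained one. With a size of 1.5 in place of 1, the counts were 2 for the gate after SAG, 2 for activin against SAG in RAX-negative cells and 5 for eye against diencephalon/hypothalamus. Leaving out one array at a time, the count for cultures against tissues was 1 to 2 (2 without diencephalon/hypothalamus, where Peg10 passed), and with the RNA source as a random block it was 0. In the 4-array model, 1 gene (H19) passed for the gate with median scaling and 4 with normexp (H19, Dlk1, Plagl1 and Snrpn). For the factor, 1 (H19) passed with median scaling, 3 with normexp (H19, Peg3 and Peg10) and 1 (Peg3) with only genes above background on all arrays. The cause was not tested; that model has 1 residual degree of freedom. No analysis paired by replicate was possible, because the labels give no replicate numbers that could pair arrays. The gates of a factor, and likewise the tissues, share a source. For cultures against tissues only the random block took this into account. The model of gate and factor is additive in both. Levels near background on one H19 probe limit what it can show. Both dim Plagl1 probes were well above background on all 8 arrays.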
